A study of Mus musculus with 24 samples.

Results

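The Slc25 genes encode the mitochondrial carrier family, and their transcripts were followed in mice fed 4 diets, in the fat under the skin of the groin (inguinal white adipose tissue, IWAT). The family was taken as every gene of the deposited count table whose symbol begins with Slc25a, which gave 40 of 16821 genes. Of these, 39 had enough reads to be tested, and Slc25a21, a carrier of oxoadipate, had 0 to 14 reads in a library and was not tested. Another 7 Slc25a genes of the annotation (Slc25a2, Slc25a18, Slc25a30, Slc25a31, Slc25a41, Slc25a43 and Slc25a54) were not analysed here.

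The mice were male C57BL6/J animals, with no engineered allele named in the labels, 6 per diet and 24 in all, put on their diets when 5 weeks old and kept on them for 12 weeks. Tissue was taken at an age of 4 months, following 4 h without food. The elemental control diet carried its protein as free amino acids with 0.86% methionine, and the elemental MR diet (methionine restriction) was the same kind of diet with 0.17%. The casein control diet held intact casein with 0.86% methionine, and the oxidized casein MR diet held oxidized casein, which loses methionine, with methionine added back to 0.17%, so oxidation of the casein and the methionine level change together on casein. The comparisons therefore ask how the carriers respond to restriction on each protein source, whether the responses differ, and how the sources differ at a given methionine level.

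Carriers of this family sit in the inner membrane of mitochondria, with a few in the outer membrane or in peroxisomes, and move nucleotides, phosphate, carboxylates, amino acids, acylcarnitines, cofactors and protons between the matrix and the cytosol. In fat cells they supply citrate for fatty acid synthesis in the cytosol, bring acylcarnitines to beta-oxidation and exchange ADP for ATP. Ucp1, the proton carrier of thermogenic adipocytes, belongs to the same family under another symbol.

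Library totals ran from 7468336 to 19868913 reads. The white adipocyte markers Adipoq, Fabp4 and 6 others summed to between 18570 and 51550 CPM in each library, so markers of the named tissue were present in all. CPM here is a gene's reads relative to the TMM-scaled total of its library. Transcripts of other tissues were uneven between libraries, and their part in the carrier results was not tested beyond the comparisons given with them. B cell markers were taken to stand for the lymph node of the pad, a source that was not tested. They split the libraries into 15 with a mean log2 CPM of the list above 4 and 9 below (4, 5, 4 and 2 of 6 above it in elemental control, elemental MR, casein control and oxidized casein MR). Skeletal muscle markers stood highest in elemental control 2 and elemental MR 2, where 10 genes summed to 12880 and 5845 CPM against at most 845.1 CPM elsewhere, and hepatocyte markers summed to 9471 CPM in elemental control 6 against at most 1428 CPM elsewhere. Mitochondrially encoded transcripts took a mean of 26.2% of reads in elemental control, 32.9% in elemental MR, 18.8% in casein control and 27.9% in oxidized casein MR. In such bulk tissue fewer cells of a type and less RNA per cell cannot be told apart.

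The promoters of the 3 carriers that rose under restriction on both protein sources are shown here because they differ in their content of CpG, the dinucleotide that is dense in the promoters of most housekeeping genes. Each run is the RefSeq promoter in GRCm38.p6, 250 bases before to 50 after the gene's start, written 5′ to 3′ on the gene's strand with every CpG in capitals. Slc25a34 lies on the minus strand (chr4:141623785-141624084), Slc25a42 on the minus strand (chr8:70212232-70212531) and Slc25a20 on the plus strand (chr9:108661886-108662185).
Slc25a34: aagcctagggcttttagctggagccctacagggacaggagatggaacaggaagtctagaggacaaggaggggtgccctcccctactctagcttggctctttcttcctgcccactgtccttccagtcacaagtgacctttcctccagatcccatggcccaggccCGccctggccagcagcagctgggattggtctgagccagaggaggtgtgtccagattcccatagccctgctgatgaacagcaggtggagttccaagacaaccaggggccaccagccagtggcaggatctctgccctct
Slc25a42: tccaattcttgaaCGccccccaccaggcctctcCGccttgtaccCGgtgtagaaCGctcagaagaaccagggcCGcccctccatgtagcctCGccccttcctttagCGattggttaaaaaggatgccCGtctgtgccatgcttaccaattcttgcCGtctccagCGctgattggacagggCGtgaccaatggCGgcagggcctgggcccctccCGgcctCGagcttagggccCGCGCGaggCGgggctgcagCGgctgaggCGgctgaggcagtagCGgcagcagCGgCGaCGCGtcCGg
Slc25a20: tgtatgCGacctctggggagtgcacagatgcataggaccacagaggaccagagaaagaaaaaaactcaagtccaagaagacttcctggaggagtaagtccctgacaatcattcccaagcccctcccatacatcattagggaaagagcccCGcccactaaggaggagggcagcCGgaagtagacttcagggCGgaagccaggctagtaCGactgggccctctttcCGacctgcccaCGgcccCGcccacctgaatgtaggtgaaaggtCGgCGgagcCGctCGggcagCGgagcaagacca

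The Slc25a34 window holds 1 CpG, the Slc25a42 window 26 and the Slc25a20 window 13, at a GC content of 59%, 65.7% and 58%. Of all 32851 RefSeq promoters of this length 14.1% hold 1 CpG or none, the median being 7. The 41 promoters matched to 31 carriers had a median of 15, and among them Slc25a34 had the only window with 1 CpG or none. Searches of both strands, for the estrogen-related receptor element TCAAGGTCA (in 0.423% of all promoters), the PPAR element, which repeats AGGTCA after 1 base (0.0396%), the palindromic NRF1 element (0.971%) and the ATF4 element TGATGNAA (3.97%), matched none of the 41 carrier promoters. The cAMP response element TGACGTCA (1.79% of all promoters) was matched in those of Slc25a25 and Slc25a36, starting 150 and 161 bases before the start.

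Across the 24 libraries the most abundant carriers were Slc25a1, the citrate carrier, with a mean of 404 CPM (101 to 764), and Slc25a3, the phosphate carrier, with 390 CPM (284 to 516). They were followed by Slc25a4, an ADP/ATP carrier, at 320 CPM, Slc25a51, the NAD carrier, at 267 CPM and Slc25a39, a glutathione carrier, at 225 CPM. CPM values here count 1 tag near the 3′ end of a transcript and are not divided by length. The 5 together made up 50.2% to 60.7% of the reads of the 39 tested carriers in every library. Summed over these 39 genes, the family took 2942 ± 440 CPM in elemental control (mean ± SD, n = 6), 3471 ± 352 in elemental MR, 2095 ± 282 in casein control and 2945 ± 318 in oxidized casein MR. The casein controls had the lowest sums, from 1600 to 2466 CPM, all below the elemental controls (2470 to 3708) and the restricted mice on casein (2643 to 3558).

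Under methionine restriction on elemental amino acids, 3 of the 39 carriers rose and none fell: Slc25a34, Slc25a42 and Slc25a20. They rose 2.04-fold to 7.78-fold. Of all 15176 genes tested 0.244% passed the same threshold (edgeR quasi-likelihood test, Benjamini-Hochberg adjusted p under 0.05), against 7.69% of the carriers, and by direction it was 0.217% higher and 0.0264% lower. On casein 13 of 39 carriers rose (33.3%), these 3 among them, and none fell, against 3.82% of all genes (3.35% higher and 0.461% lower).

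**Figure D1:**
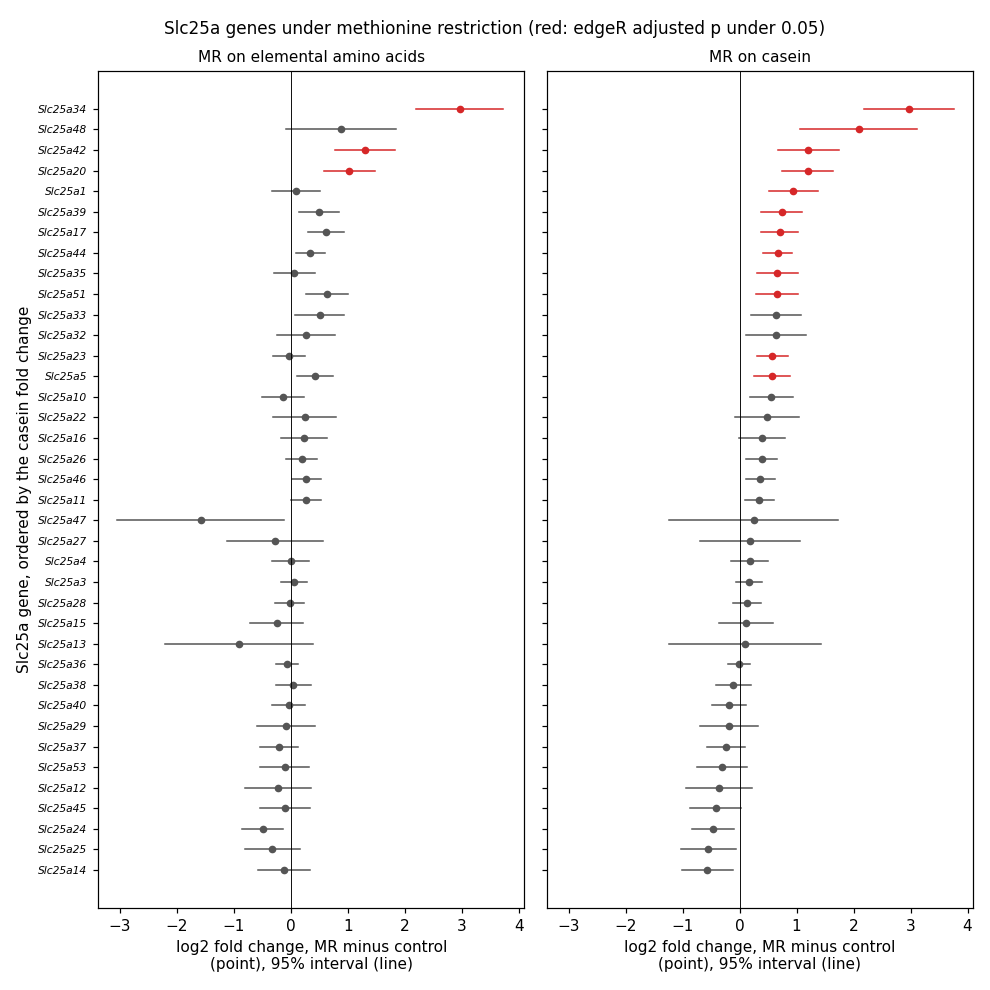
Log2 fold change (x axis, restricted minus control) of 38 tested carriers (y axis, ordered by their change on casein) on elemental amino acids and on casein, with 95% intervals from edgeR and carriers past an adjusted p of 0.05 in red. Slc25a34 stands furthest right in both panels, 3 of those drawn are red on elemental amino acids and 12 on casein.

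The median log2 fold change of the 39 was 0.06 on elemental amino acids (all genes -0.02), with 21 above 0 (all genes 46.1%), and 0.36 on casein (all genes -0.06), with 28 above 0 (all genes 41.9%). At an unadjusted p under 0.05 there were 13 carriers on elemental amino acids and 22 on casein, against 10.2% and 16.1% of all genes. The count on elemental amino acids fell to 1, Slc25a34 alone, when any one of elemental control 2, 4, 5 or 6 or elemental MR 4 or 6 was left out, and was 5 without elemental control 1. On casein it ranged from 9 (without casein control 6) to 15 (without casein control 5), but it was 1 (Slc25a34) in the libraries with a B cell score above 4 and 2 (Slc25a44 and Slc25a48) in the others. The log2 changes of the 13 stayed above 0 in both subsets, from 0.41 (Slc25a23) to 2.66 (Slc25a34) with the higher scores and from 0.34 (Slc25a5) to 4.17 (Slc25a34) with the lower. In these smaller subsets 18 and 15 of the 39 carriers had an unadjusted p under 0.05. Under restriction on casein all 10 B cell markers had log2 changes below 0 (median -1.06, none at an unadjusted p under 0.05), and on elemental amino acids all 5 macrophage markers did (median -0.59, 4 at an unadjusted p under 0.05, none called).

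Slc25a34 (chr4:141618824-141623821, minus strand), a carrier without a firmly assigned substrate, changed most. Its lowest, median and highest levels were 4.15, 4.90 and 9.905 CPM in elemental control and 30.5, 45.6 and 58.15 CPM in elemental MR. In the casein control mice they were 1.08, 2.30 and 6.33 CPM, and in oxidized casein MR 6.50, 23.7 and 32.1 CPM. Every restricted mouse lay above every control mouse of its protein source, although oxidized casein MR 6, the lowest of its diet, was close to casein control 3, the highest of its own. The transcript was 7.78-fold higher under restriction on elemental amino acids (log2 fold change 2.96, SE 0.37, adjusted p = 0.000655) and 7.84-fold higher on casein (log2 fold change 2.97, SE 0.38, adjusted p = 0.000592). It had the smallest p of all 15176 genes in both comparisons. The log2 effect on casein minus that on elemental amino acids was 0.01 (95% interval -0.85 to 0.88). Counts of this transcript were modest, 17 to 811 reads in a library.

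Slc25a20 (chr9:108662088-108684641, plus strand) encodes the carnitine-acylcarnitine carrier, which brings fatty acids as acylcarnitines into the matrix for oxidation. It ran from 48.0 to 138 CPM in elemental control (median 94.7) and from 154.5 to 256 CPM in elemental MR (median 189.8), without overlap. On casein it ran from 35.8 to 79.2 CPM in controls (median 50.9) and from 92.0 to 165 CPM in restricted mice (median 128.5), again without overlap. Its level was 2.04-fold higher on elemental amino acids (log2 fold change 1.03, SE 0.22, adjusted p = 0.0386) and 2.285-fold higher on casein (log2 fold change 1.19, SE 0.22, adjusted p = 0.00425). Elemental control 2, one of the libraries with muscle transcripts, held the lowest elemental control value, 48.0 CPM. Without it and elemental MR 2 the log2 change on elemental amino acids was 0.91 and no longer called. The call was lost in 7 of the 24 omissions of a single library, among them elemental control 4, 5 and 6 and elemental MR 1, 4 and 6.

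Slc25a42 (chr8:70184340-70212305, minus strand) carries coenzyme A and adenine nucleotides across the inner membrane. Elemental controls had 7.31, 9.30 and 13.3 CPM (lowest, median and highest) and elemental MR mice 13.25, 24.4 and 36.6 CPM. The casein controls had 3.175, 7.65 and 10.5 CPM and oxidized casein MR mice 10.0, 16.7 and 24.6 CPM. Of the 6 restricted mice, 5 lay above all controls on each source. The rise was 2.47-fold on elemental amino acids (log2 fold change 1.30, SE 0.26, adjusted p = 0.0271) and 2.30-fold on casein (log2 fold change 1.20, SE 0.26, adjusted p = 0.00945). Like that of Slc25a20, its call on elemental amino acids was lost without the libraries with muscle transcripts (log2 fold change 1.25). It was also lost on leaving out elemental control 4, 5 or 6 or elemental MR 4 or 6 alone, and kept on leaving out elemental MR 2 alone.

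Slc25a48 (chr13:56438355-56474239, plus strand), a carrier of choline, had the second largest fold on casein. It was lowest in casein controls, with 0.801, 3.01 and 4.60 CPM (lowest, median and highest) against 4.44, 11.4 and 15.8 CPM in oxidized casein MR. Fed elemental amino acids, mice had 1.83, 9.19 and 24.2 CPM in controls, the widest relative spread of these 4 carriers, and 9.25, 17.8 and 30.6 CPM in MR. Its level was 4.25-fold higher on casein (log2 fold change 2.09, SE 0.50, adjusted p = 0.0177), while on elemental amino acids it was 1.84-fold (log2 fold change 0.88, SE 0.46, adjusted p = 0.55). The difference between the effects had a 95% interval of -0.18 to 2.60 on the log2 scale and was not called.

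**Figure D2:**
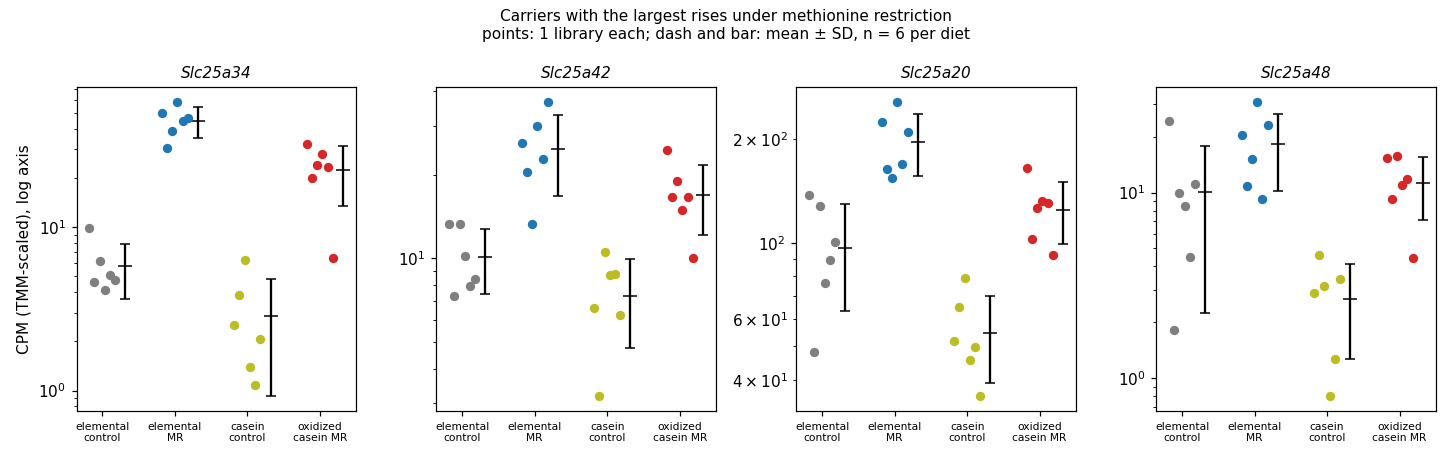
CPM on a log axis (y) of Slc25a34, Slc25a42, Slc25a20 and Slc25a48 in each of the 24 libraries by diet (x), with the mean ± SD of 6 mice. Restricted mice of Slc25a34 and Slc25a20 lie above all controls of their protein source, while Slc25a48 overlaps between the elemental diets.

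Beside Slc25a20, 11 genes of carnitine handling and beta-oxidation were tested. Among them Crat, which makes and breaks short acylcarnitines, rose on elemental amino acids (1.54-fold, adjusted p = 0.0388). On casein 8 of 11 rose: Crat (1.80-fold), Acadvl (2.53-fold), Hadha (2.41-fold), Hadhb (2.39-fold), Acadl (1.93-fold), Cpt2 (1.77-fold), Acadm (1.61-fold) and Acsl1 (1.52-fold). The median log2 change of the 11 was 0.70 on elemental amino acids and 0.85 on casein, and 9 had an unadjusted p under 0.05 on each. Of all genes 0.244% and 3.82% were called. Cpt1a was the 1 below 0 on elemental amino acids (-0.22). On casein 2 were below 0, the lowest being Cpt1c (-0.77), and Cpt1a averaged 39.6 CPM in controls and 35.7 CPM in restricted mice. Of 7 genes of coenzyme A synthesis, read beside Slc25a42, only Coasy was called, on casein (1.71-fold, adjusted p = 0.0291), and none was called on elemental amino acids. On each source 6 of these 7 were above 0, with 2 on elemental amino acids and 4 on casein at an unadjusted p under 0.05. Pank1 had the highest log2 change of the list on both (1.09 and 1.64). No gene of choline use (0 of 6), read beside Slc25a48, was called on either source (at an unadjusted p under 0.05, 0 on elemental amino acids and 1 on casein).

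Among the carboxylate carriers Slc25a1 (chr16:17925223-17928219, minus strand), which exports citrate to the cytosol, changed with the protein source and with restriction on casein. The casein controls had 101, 196 and 252 CPM (lowest, median and highest) and the oxidized casein MR mice 263, 359 and 539 CPM, with no overlap. The elemental controls had 385, 446 and 714 CPM and the elemental MR mice 424.5, 520.3 and 764 CPM, and these groups overlapped. The rise under restriction on casein was 1.92-fold (log2 fold change 0.94, SE 0.21, adjusted p = 0.0104), and the change on elemental amino acids 1.06-fold (log2 fold change 0.09, SE 0.21, adjusted p = 0.991). The log2 difference between the effects was 0.85 (95% interval 0.25 to 1.46), which had an unadjusted p of 0.00735 and did not pass after adjustment (adjusted p = 0.910).

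Slc25a10, the dicarboxylate carrier, and Slc25a11, the oxoglutarate carrier of the malate-aspartate shuttle, did not pass on either source. Slc25a11 had 54.1 to 70.25 CPM in casein controls and 72.3 to 95.3 CPM in oxidized casein MR, the only carrier whose casein groups did not overlap and which was not called (adjusted p = 0.145). Of all genes 2.27% separated in this direction on casein, as did 7 of the 39 carriers (17.9%). On elemental amino acids 2 of 39 carriers, Slc25a20 and Slc25a34, separated upward (5.13%), against 0.573% of all genes. The enzymes that make and use citrate and malate moved on casein too: 5 of 7 rose (among them Acly 2.63-fold, Pcx and Me1 1.80-fold each, and Cs 1.71-fold), and 0 of 7 were called on elemental amino acids (2 at an unadjusted p under 0.05). Of 6 genes of the malate-aspartate and glycerophosphate shuttles, Mdh2 (1.54-fold) and Gpd1 (2.60-fold) rose on casein and none was called on elemental amino acids. Among all genes 3.82% were called on casein and 0.244% on elemental amino acids.

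Of 9 carriers of cofactors and of nucleotides other than ATP and ADP, 4 rose on casein and 1 of them, Slc25a42, on elemental amino acids. Slc25a51, which carries NAD into the matrix, had 137, 188 and 227.5 CPM in casein controls and 215, 285 and 366 CPM in oxidized casein MR (1.57-fold, log2 fold change 0.65, SE 0.18, adjusted p = 0.0378). In the elemental diets the same gene had 138, 222.5 and 367 CPM in controls and 291, 366.5 and 447 CPM in MR (1.55-fold, log2 fold change 0.63, SE 0.18, adjusted p = 0.15). Only the lowest value on casein crossed into the control range, and 3 of 6 elemental MR mice lay above all elemental controls.

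Slc25a17, the peroxisomal carrier of coenzyme A and related cofactors, rose 1.625-fold on casein (log2 fold change 0.70, SE 0.15, adjusted p = 0.0104), with 25.1 to 45.4 CPM in controls and 42.2 to 75.45 CPM in restricted mice. On elemental amino acids it had 34.5 to 56.5 CPM in controls and 52.7 to 78.7 CPM in MR (1.535-fold, log2 fold change 0.62, SE 0.15, adjusted p = 0.0945), and 5 of 6 restricted mice lay above all controls. Slc25a26, the carrier that brings S-adenosylmethionine, the methyl donor made from methionine, into the matrix, was at 11.4 to 15.5 CPM in elemental control, 14.0 to 18.1 CPM in elemental MR, 9.80 to 15.4 CPM in casein control and 12.6 to 20.9 CPM in oxidized casein MR. It did not pass on elemental amino acids (log2 fold change 0.19, SE 0.13, adjusted p = 0.714) or on casein (log2 fold change 0.38, SE 0.14, adjusted p = 0.127). The folate carrier Slc25a32 had log2 changes of 0.27 on elemental amino acids and 0.63 on casein, and those of Slc25a33, a pyrimidine nucleotide carrier, were 0.50 and 0.64 and of Slc25a16 0.23 and 0.40. For the least changed of the 9, Slc25a36, which also carries pyrimidine nucleotides, they were -0.06 and -0.01. Of 6 one-carbon genes tested none was called on either source or at an unadjusted p under 0.05.

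Of the 6 adenine nucleotide and phosphate carriers, 2 rose on casein and none was called on elemental amino acids. Slc25a5, the ADP/ATP carrier found in most tissues, had 53.9, 112 and 129 CPM in casein controls and 133, 156 and 164 CPM in oxidized casein MR, without overlap (1.48-fold, log2 fold change 0.57, SE 0.15, adjusted p = 0.0318). In elemental control it had 92.6, 129 and 148 CPM and in elemental MR 146, 168 and 204 CPM (log2 fold change 0.42, SE 0.15, adjusted p = 0.288). Slc25a23, a calcium-regulated carrier of ATP-Mg, rose 1.49-fold on casein (log2 fold change 0.57, SE 0.13, adjusted p = 0.0144), with 64.35 to 109 CPM in controls and 101 to 148 CPM in restricted mice. On elemental amino acids it ran from 72.4 to 123 CPM in controls and 93.7 to 113 CPM in MR (log2 fold change -0.03, SE 0.13, adjusted p = 1). The difference between its effects, 0.61 (95% interval 0.22 to 0.9972), had an unadjusted p of 0.00375 and an adjusted p of 0.910. Its relatives were not called and stood below 0 on both sources: Slc25a24 had log2 changes of -0.50 and -0.47 and Slc25a25 -0.33 and -0.56. Slc25a4, the ADP/ATP carrier of muscle and heart, had log2 changes of -0.01 and 0.17, and its highest levels, 526 and 477 CPM, were in the 2 libraries with muscle transcripts. A processed copy of Slc25a5 (Slc25a5-ps) is in the annotation, and how reads that match both were counted is not stated in the labels.

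Of the 7 amino acid carriers tested Slc25a44 alone rose, on casein. Slc25a44 imports branched-chain amino acids into mitochondria. It had 50.9, 63.8 and 71.4 CPM in casein controls and 86.4, 101 and 119 CPM in oxidized casein MR, without overlap (1.59-fold, log2 fold change 0.67, SE 0.12, adjusted p = 0.00455). In elemental control it had 72.04, 79.8 and 113 CPM and in elemental MR 79.0, 107 and 127 CPM (1.265-fold, log2 fold change 0.34, SE 0.12, adjusted p = 0.297). Of 7 genes of branched-chain amino acid breakdown 5 rose on casein (Dld 1.81-fold, Dbt 1.61-fold, Bckdk 1.56-fold, Bckdha 1.54-fold and Bckdhb 1.504-fold). None of the 7 was called on elemental amino acids, where 5 had an unadjusted p under 0.05. Among all genes 3.82% were called on casein and 0.244% on elemental amino acids. The other amino acid carriers ran from Slc25a12 at -0.37 to Slc25a22, the glutamate carrier, at 0.48 on casein, none of them called.

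Of the glutathione carriers Slc25a39 rose on casein and Slc25a40 did not. Slc25a39 had 85.0, 149 and 172 CPM in casein controls and 179.6, 224 and 317 CPM in oxidized casein MR, without overlap (1.665-fold, log2 fold change 0.74, SE 0.17, adjusted p = 0.0145). Elemental controls had 153.5, 215 and 304.5 CPM and elemental MR mice 253, 308 and 387 CPM, and 3 of 6 restricted mice lay above all controls (1.41-fold, log2 fold change 0.49, SE 0.17, adjusted p = 0.274). Slc25a40 stood at 10.1 to 11.5 CPM on average in the 4 diets, with log2 changes of -0.04 and -0.18. The iron carriers Slc25a28 and Slc25a37 had log2 changes of -0.02 and -0.21 on elemental amino acids and 0.13 and -0.25 on casein, neither called.

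Slc25a35, a carrier without a firmly assigned substrate, had 14.8, 22.3 and 23.9 CPM (lowest, median and highest) in casein controls and rose in oxidized casein MR to 23.5, 33.4 and 49.0 CPM (1.58-fold, log2 fold change 0.66, SE 0.17, adjusted p = 0.0288). On elemental amino acids it was not called, with 25.1, 37.9 and 47.5 CPM in controls and 29.1, 37.8 and 47.4 CPM in MR (log2 fold change 0.06, SE 0.17, adjusted p = 0.994). Its exons overlap those of Rangrf on the opposite strand by 1151 bases, and whether counting used the strand is not stated in the labels. Rangrf was counted at 0.329 to 1.93 CPM in the 24 libraries, and its log2 change on casein was -0.01. Of the other carriers without a firmly assigned substrate, Slc25a45 had log2 changes of -0.11 and -0.42 and Slc25a53 -0.11 and -0.31, neither called. Slc25a46 stood above 0 on both sources, at 0.27 and 0.36, and was not called.

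**Figure D3:**
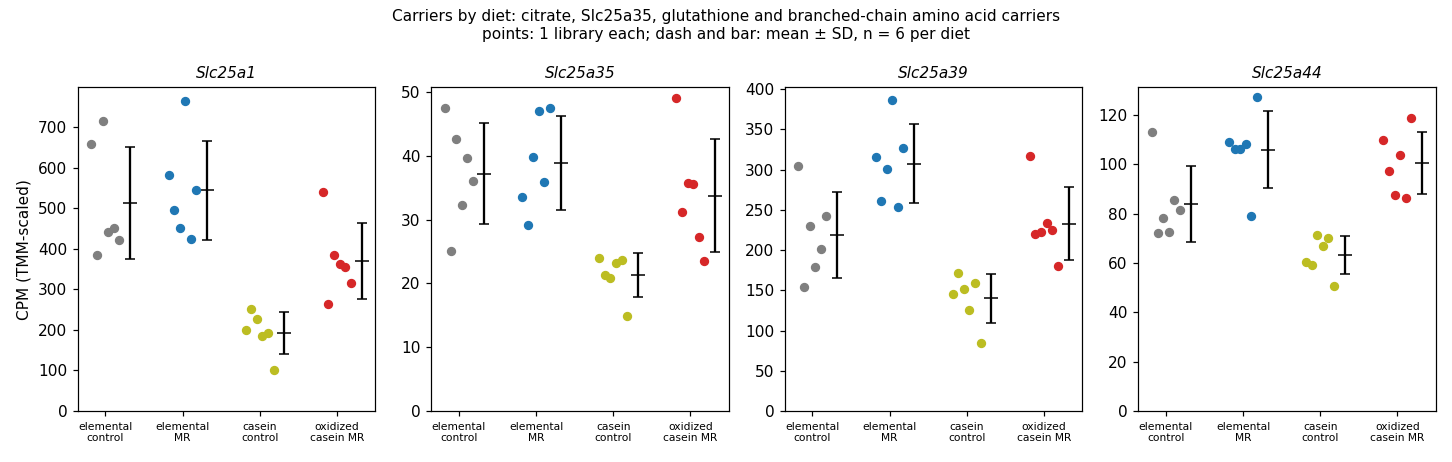
CPM (y, linear axis from 0) of Slc25a1, Slc25a35, Slc25a39 and Slc25a44 in each library by diet (x), with the mean ± SD of 6 mice. In all 4 panels the casein controls are the lowest group, and for Slc25a1, Slc25a35 and Slc25a44 none of them reaches the elemental controls.

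Restriction was also set between the sources. For none of the 39 carriers did the effect on casein differ from that on elemental amino acids after adjustment, nor did any of the 15176 genes (0%, edgeR). At an unadjusted p under 0.05 there were 4 carriers, Slc25a1, Slc25a10, Slc25a23 and Slc25a35, against 3.33% of all genes, and 29 of 39 differences were above 0 (all genes 51.3%). Of the 10 carriers called on casein and not on elemental amino acids, 9 had a log2 change above 0 on elemental amino acids and 5 had an unadjusted p under 0.05 there. A response on casein alone was therefore not shown for any carrier.

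At control methionine 2 of 39 carriers were lower on casein than on elemental amino acids (5.13%) and none was higher, against 0.659% of all genes called (0.646% lower and 0.0132% higher). Slc25a1 was 2.66-fold lower on casein (log2 fold change -1.41, SE 0.21, adjusted p = 0.00247), at 193 ± 51.1 CPM against 512 ± 138 CPM (mean ± SD, n = 6), and its p was the third smallest of all genes. Slc25a35 was 1.745-fold lower (log2 fold change -0.80, SE 0.17, adjusted p = 0.0294), at 21.3 ± 3.397 CPM against 37.2 ± 7.90 CPM. Both groups were apart, as they were for Slc25a44, which was not called (log2 fold change -0.41, SE 0.12, adjusted p = 0.124). Separation in this direction occurred in 0.751% of all genes and in 3 of 39 carriers (7.69%).

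Of the 39 carriers 30 had a log2 difference below 0 between the controls, with a median of -0.35 (all genes 0.02, of which 53.6% were above 0), and 17 an unadjusted p under 0.05 (12.6% of all genes). All 9 carriers of cofactors and other nucleotides were below 0, from -0.86 (Slc25a32) to -0.14 (Slc25a36). The largest difference that did not pass was that of Slc25a48 (log2 fold change -1.91, SE 0.49, adjusted p = 0.0775), and Slc25a20 stood at -0.82 (adjusted p = 0.0785). Me1 (2.48-fold), Acly (4.10-fold) and Pcx (1.75-fold), enzymes that use citrate or malate or supply them, were lower on casein too, 3 of 7. Among all genes 0.659% were called between the controls. These controls are the same mice that serve in the restriction comparisons, so a low casein control level enters both the difference between controls and the rise on casein. The count of 2 became 6 without elemental control 2 (Slc25a20, Slc25a32, Slc25a39 and Slc25a48 being added) and 1, Slc25a1 alone, without elemental control 1, 3, 5 or 6 or casein control 1 or 6. Slc25a35 lost its call in 7 of the 24 omissions of a single library and Slc25a1 in 0. Between the controls all 10 muscle markers (median log2 difference -3.54) and all 8 hepatocyte markers (-2.39) were lower on casein in value. Of these 10 and 7 had an unadjusted p under 0.05 and none was called, but markers of a list share their libraries. The muscle sum had medians of 137.5 CPM in elemental and 119 CPM in casein controls, with 12880 CPM in elemental control 2. For the hepatocyte sum the medians were 867.2 and 422.1 CPM, with 9471 CPM in elemental control 6. The part of these tissues in the carrier differences was tested only by leaving libraries out. Without elemental control 2 and 6 and elemental MR 2, 4 carriers passed. With only these 12 control libraries in the fit no carrier passed.

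Between the restricted diets no carrier differed after adjustment, nor did any gene (0%, edgeR). Unadjusted p-values under 0.05 were found for 7 carriers, against 6.98% of all genes. No carrier had groups apart, as 0.224% of all genes did upward and 0.204% downward. The mean of Slc25a34 was 22.35 ± 8.81 CPM in oxidized casein MR and 44.7 ± 9.48 CPM in elemental MR (log2 fold change -1.004, SE 0.34, adjusted p = 0.658, 95% interval -1.71 to -0.29). Slc25a20 had the smallest p of the family in this comparison (log2 fold change -0.66, SE 0.22, adjusted p = 0.636), at 125 ± 25.6 CPM against 197 ± 40.3 CPM.

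Seen by library, 8 of the 13 called carriers had their lowest value of the 24 in casein control 6, among them Slc25a1, Slc25a20, Slc25a23, Slc25a35, Slc25a39, Slc25a44 and Slc25a51. That library also had the highest B cell score of the 24 (7.06) and the lowest sum of white adipocyte markers (18570 CPM). Whether its tissue make-up lowered the carriers was not tested. Oxidized casein MR 6 held the lowest value of its diet for Slc25a34, Slc25a20, Slc25a42 and Slc25a48, and also the lowest brown and beige marker sum of its diet, 956.3 CPM. Markers of brown and beige adipocytes differed between the diets too. Summed over 8 genes they ran from 380.3 to 3666 CPM in elemental control, 3257 to 6317 in elemental MR, 245.7 to 1340 in casein control and 956.3 to 4317 in oxidized casein MR. Restriction on elemental amino acids raised 1 of the 8 and restriction on casein 4 of 8 (0.244% and 3.82% of all genes were called). Between the controls 1 was lower on casein (0.659% of all genes called). All 8 markers had log2 changes above 0 on both sources (medians 1.04 and 1.68), with 6 and 7 at an unadjusted p under 0.05. Between the controls all 8 markers were below 0 on casein (median -1.37, 6 at an unadjusted p under 0.05). Their part in the carrier results was not tested.

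**Figure D4:**
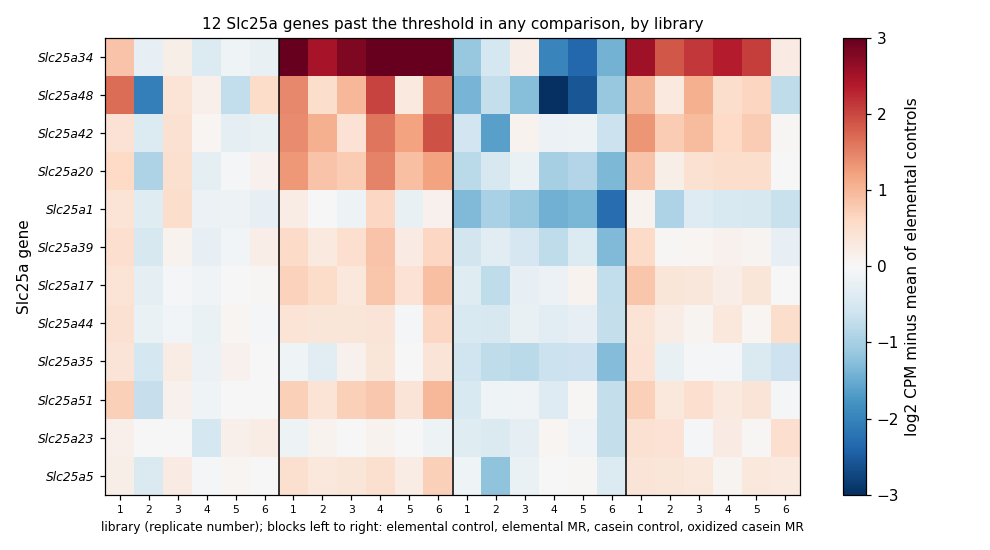
Log2 CPM of 12 carriers called in a comparison (y) in the 24 libraries (x, replicate numbers in blocks of 6 per diet), relative to the mean of the elemental controls and with colours ending at -3 and 3. The casein control block is blue for nearly all carriers, and Slc25a34 and Slc25a42 are red in the elemental MR and most oxidized casein MR libraries.

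The carriers Slc25a47, known from liver, and Slc25a13, the aspartate-glutamate carrier of liver, had their highest levels in 1 library. Slc25a47 had 39.3 CPM in elemental control 6, the library with the hepatocyte markers, against 1.38 to 7.35 CPM in the other elemental controls. Slc25a13 had 29.2 CPM there, against 2.06 to 4.82 CPM in the others, and Slc25a15, the ornithine carrier of the urea cycle, 34.7 CPM against 12.0 to 17.99 CPM. With this library the log2 changes on elemental amino acids were -1.58, -0.91 and -0.25, and without it -0.49, 0.27 and 0.06, none called either way. Slc25a13 was also above the rest of its diet in elemental MR 4 (8.39 CPM) and in oxidized casein MR 1 and 4 (10.65 and 6.98 CPM), the libraries with the most hepatocyte marker reads of these diets.

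**Figure D5:**
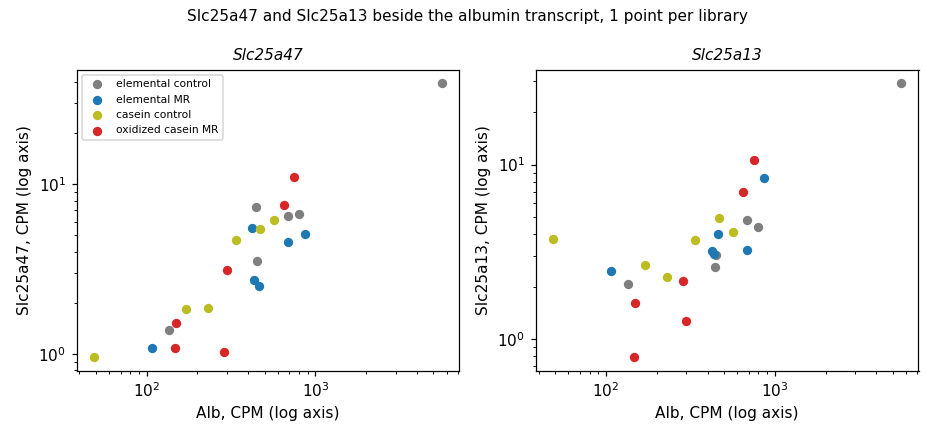
Slc25a47 and Slc25a13 (y, CPM on a log axis) against the albumin transcript Alb (x, CPM on a log axis), 1 point per library coloured by diet. Elemental control 6 stands alone at the upper right, at 5610 CPM of Alb.

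The uncoupling protein relatives Slc25a14 and Slc25a27 were low, at 1.48 to 7.01 CPM and 0.250 to 2.44 CPM in the 24 libraries, and neither was called. Slc25a14 had the lowest log2 change of the family on casein, -0.57 (adjusted p = 0.178). Of the family members under other symbols Mtch2, an outer membrane protein, rose on casein (1.60-fold, adjusted p = 0.0144), and Ucp1 did not pass on elemental amino acids (log2 fold change 1.94, SE 0.85) or casein (2.89, SE 0.88). Ucp1 ran from 15.6 to 1211 CPM in elemental control, 1255 to 2619 in elemental MR, 7.12 to 431 in casein control and 99.4 to 1791 in oxidized casein MR. Of 25 other genes of mitochondrial transport 7 rose on casein, among them both subunits of the pyruvate carrier (Mpc1 2.46-fold, Mpc2 2.27-fold), Vdac1, a channel of the outer membrane (1.46-fold), and Letm1, a cation exchanger (1.66-fold). None of the 25 was called on elemental amino acids (5 at an unadjusted p under 0.05), and Mpc1, Mpc2 and Vdac1 were lower in casein than in elemental controls. Among all genes 3.82% were called on casein, 0.244% on elemental amino acids and 0.659% between the controls.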

How the data were processed

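Whole-transcriptome counts of IWAT came from 24 mice, 6 per diet, each a separate animal by its number in the labels. No label names a sequencing batch. Per the labels' protocols, QuantSeq 3′ libraries were read as 50 bp forward reads. The submitters' processing notes list DESeq2 1.18.1 under R 3.4.3, with the builds GRCm38 and mm10. Neither aligner nor counter nor strand setting is given there or in the labels. The series design text speaks of the liver, while the sample source and protocol name IWAT. The authors deposited whole-number counts for 16821 genes, each with at least 72 reads in all, and a normalized signal table that equals those counts divided by a size factor per library (largest relative difference 9.84e-15), which was not used in tests.

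Counts were fitted in R 4.3.3 with edgeR 4.0.16 (filterByExpr, which left 15176 genes, TMM scaling, 1 mean per diet, robust quasi-likelihood F tests, 2-sided) and adjusted by Benjamini-Hochberg over all genes tested at 0.05. Every adjusted p is edgeR's unless another tool is named. Levels are CPM from TMM-scaled totals, SE is derived from the fold change and F, and precision rests on the spread between mice, since PCR copies are not independent molecules. No libraries of a diet agreed within counting error (smallest chi-square per degree of freedom 5.84). The script was tested on simulated data. Carriers called in any comparison are given in full and the others by range, except that 1 called carrier and some genes of the lists enter the counts and are not reported here by name. Lists followed substrate roles and textbook pathways, and marker lists covered B cells, T cells, muscle, hepatocytes, white, brown and beige adipocytes, progenitors, endothelium, macrophages and epithelium. The members, lists and the Rangrf and Slc25a15 values were chosen with earlier results of these data known. Positions are GENCODE M21 and promoters RefSeq, both of GRCm38. Alternatives were DESeq2 1.42.0, limma 3.58.1 voom, other scaling and filters, a B cell covariate, subsets of libraries and leaving out each library.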

Additional observations from a re-analysis of the deposited data

Results flagged for a closer look

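Among 16 carriers, 64 groups of 6 libraries were searched for a value far from the rest, and 9 were found. Chance gives about 1 in 20 independent groups, but these groups share libraries and hold carriers chosen with their values known, so the 9 cannot be set against that rate. In elemental control 6, the library with hepatocyte markers, Slc25a47 had 39.3 CPM against 7.35 CPM in the next and Slc25a13 had 29.2 CPM against 4.82 CPM. Slc25a13 was also high in elemental MR 4, the elemental MR library with the most hepatocyte marker reads, with 8.39 CPM against 4.00 CPM. In elemental control 1 Slc25a34 had 9.905 CPM against 6.19 CPM and Slc25a44 113 CPM against 85.6 CPM. This library also had the highest sum of brown and beige markers of its diet. A high value stood apart for Slc25a17 in oxidized casein MR 1 (75.5 CPM against 54.5). Low values stood apart for Slc25a35 in casein control 6 (14.8 CPM against 20.9), Slc25a23 in elemental control 4 (72.4 CPM against 104) and Slc25a5 in oxidized casein MR 4 (133 CPM against 154.6).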

How the results depend on the processing

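No paired analysis was possible because each library is a separate mouse and the labels give the diets no shared replicate numbers. No called change reversed in any alternative. Of the changes not called, those of Slc25a13 and Slc25a15 on elemental amino acids turned from -0.91 and -0.25 to 0.27 and 0.06 without elemental control 6. Other scaling moved the median of all genes by at most 0.03 (log2). The 3 calls on elemental amino acids became 5 with DESeq2, 1 without elemental control 2 and elemental MR 2, 1 without these and elemental control 6 (an alternative chosen after seeing the data), 1 in libraries with B cell scores above 4 and 0 in those of 4 or less, where the single elemental MR library was assumed to vary like the others. Leaving out single libraries gave 1 to 5. The 13 calls on casein became 1 (Slc25a34) with B cell scores above 4 and 2 (Slc25a44 and Slc25a48) with 4 or less, fits with 2 and 4 restricted mice. Single libraries gave 9 to 15, and the other alternatives 9 to 16. The 2 calls between controls became 7 with the B cell covariate, 6 with DESeq2, 0 in a fit of these diets alone, 5 without the muscle libraries, 4 without these and elemental control 6, 4 with B cell scores above 4 and 0 with 4 or less, and single libraries gave 1 to 6. Beyond fewer samples in the subsets, the cause was not tested. The difference between the restriction effects and that between restricted diets gave 0 calls in each of 34 and 35 alternatives. Slc25a34 stayed past the threshold in 34 of 35 alternatives on each source, Slc25a42 in 25 and Slc25a20 in 23 of 35 on elemental amino acids. On casein Slc25a5 stayed in 29, Slc25a35 in 28 and Slc25a51 in 27 of 35. Between the controls Slc25a1 stayed in 33 and Slc25a35 in 26 of 35. Slc25a27, the carrier with 0.250 to 2.44 CPM, had 95% intervals of -1.13 to 0.57 and -0.70 to 1.05 (log2) on elemental amino acids and casein.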

Other observations

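With the B cell marker score as a covariate 14 carriers were higher and 2 lower on casein. The 2 lower ones were Slc25a24 (log2 fold change -0.55, SE 0.16) and Slc25a25 (-0.75, SE 0.16), calcium-regulated ATP-Mg carriers, and the folate carrier Slc25a32 was among the higher (0.84, SE 0.23). Without the covariate the 3 had log2 changes of -0.47, -0.56 and 0.63, not called. The B cell score was above 4 in 2 of 6 oxidized casein MR libraries and 4 of 6 casein controls.

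Other marker lists gave few calls. None of the B cell (10), T cell (8), muscle (10), hepatocyte (8), progenitor (5), endothelial (5) or epithelial (2 tested) markers was called under restriction on either source. Uncalled differences of B cell markers on casein, macrophage markers on elemental amino acids, and muscle and hepatocyte markers between controls are given with the carrier counts. All 8 T cell markers had log2 changes below 0 on casein (median -0.74, none at an unadjusted p under 0.05). On elemental amino acids all muscle (median -1.03), hepatocyte (-1.72), progenitor (-0.54) and endothelial (-0.19) markers were below 0. Of these only 2 progenitor markers had an unadjusted p under 0.05. On casein all 10 muscle markers were above 0 (median 0.93) and all 5 macrophage markers below 0 (-0.44). Of 5 macrophage markers Cd68 was lower on casein, and of 8 white adipocyte markers Slc2a4 was higher on casein (3.82% of all genes called). None of either list was called on elemental amino acids. The white adipocyte markers went both ways, with 3 of 8 below 0 on casein and 5 of 8 on elemental amino acids. Lep had the lowest log2 change of that list on both, -1.65 and -1.84, and was not called, against 0.63 for Slc2a4 on casein.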
